A study of Sus scrofa with 3 samples.

Results

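The genes described here are those whose symbols begin like the cyclins A, B, D and E, the cyclin-dependent kinases (CDKs) and their inhibitors, the CDC, MCM, BUB, CENP, aurora, kinesin, polo-like kinase and MAD2 genes, together with UBE2C, TOP2A, PCNA and BIRC5. They were found by symbol in the annotation of the array, and each was represented by its brightest probe set. This gave 73 of the 6765 genes named on the array, measured by 104 probe sets. By textbook role, 42 of the 73 act in the cell cycle. The other 31 share a symbol prefix and were on none of the role lists used here. Among them are CDC42, a small GTPase of the cytoskeleton, and KIF5B, a transport motor. Some of the 31, such as CDK7, may still act in the cycle. MKI67 and several central genes, among them CDK1, CDK4, CCND1 and CCNE1, have no probe set with a symbol of their own and were not analysed here.

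The samples were germs of the last deciduous molar (Dm3) with their dental lamina, dissected from the mandibles of Wuzhishan miniature pigs. Germs of littermates were pooled at each stage, and 1 array was hybridised per stage. The germ was at the cap stage on embryonic day 40 (E40), before any successional lamina had formed. On E50 it was at the bell stage and the successional lamina had started, and on E60 it was at the secretory stage. The paper's methods instead name E50 early bell and E60 late bell. A stage is thus a single array of a single pool, which leaves no replicate error, and no p-value is attached to any gene. Pool, litter and array cannot be told apart from stage.

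A dividing cell first passes the G1/S step, driven by D cyclins and by CDK2 with its cyclin partners. It then copies its DNA with the MCM helicase, CDC45 and the sliding clamp PCNA. Cyclin B with CDK1, the aurora kinases and PLK1 carry it into mitosis. The spindle checkpoint holds it there until chromosomes are attached, after which the anaphase-promoting complex with UBE2C and CDC20 destroys mitotic cyclins. CDK inhibitors such as CDKN1A and CDKN1B oppose these steps. In a tooth germ the epithelium and the papilla proliferate as the crown takes shape, and ameloblasts and odontoblasts leave the cycle before they secrete matrix.

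Signals are MAS 5.0 units, scaled so that every array has the same trimmed mean. They can be compared for 1 gene between stages, not between genes. A floor for dim signals was set at the 25th percentile, a signal of 29.3 for E40, 17.2 for E50 and 21.8 for E60. The enamel and dentin genes AMELX, ENAM, DSPP and DMP1 were under the floor on E40, and the summed signal of 11 tooth germ markers came to 27268.5 (E40), 31293.9 (E50) and 91542.0 (E60). VIM, which mesenchyme of many tissues expresses, made up 19633.8 of the first sum. The E40 array stood apart by its muscle genes. The summed signal of 14 skeletal muscle markers was 43091.8 for E40 but 1022.9 for E50 and 3767.2 for E60, and all 14 were above the floor on E40. On E60, MYL1 alone gave 3266.3 of the sum. Summed over 7 genes of keratinised epithelium, it was 15367.9, 3736.7 and 4202.7. KRT10, within the latter, ran the other way with 1320.7, 1713.5 and 2275.5. These muscle and keratin sums move with both comparisons to E40. The tooth germ sum moves with E60 versus E50, over which AMBN went from 2675.2 to 29942.0 and ENAM from 26.1 to 6971.7. The part of these cell types in the values below was not tested. In RNA of whole germs, fewer dividing cells, less RNA per dividing cell and more RNA from other cells cannot be told apart.

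Most cell cycle genes were measured at all 3 stages and moved by less than 2-fold. Of the 73 genes, 70 were above the floor on all 3 arrays, and CDKN2B and PLK3 were under it on all 3. Over 2-fold differences in at least 1 pair of stages were seen for 9 of the 71 measured genes (12.7%), where 17.6% of all genes had one. CDKN2B and PLK3 gave no fold, and CDKN2C gave only bounds, so larger differences in these 3 dim genes could not be seen. On E50 versus E40, 3 of 71 measured members were higher by over 2-fold, where 2.79% of all measured genes were, and 2 were lower, where 8.14% were. On E60 versus E50, 0 of 71 were higher and 3 were lower, beside 4.41% and 1.76% of all genes. Between the outer stages, E60 versus E40, 3 of 70 were higher and 2 lower, beside 4.49% and 7.3%. In both directions together, 7.04%, 4.23% and 7.14% of the members differed in these 3 pairs, against 10.9%, 6.18% and 11.8% of all genes. A brighter group was formed of the 4919 genes with a mean log2 signal above the median of all probe sets. For these brighter genes the shares were 6.04%, 3.37% and 7.99%. In at least 1 pair, 11.2% of them differed by over 2-fold, as did 10.8% of the 65 members in the group.

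Genes of dividing cells mostly had a lower signal on E60 than on E50. The 31 genes of the S phase and mitosis roles, a grouping of 7 role lists made after the values had been seen, were lower on E60 in 28 cases. Over all genes 54.6% were lower, and over the brighter genes, which hold 27 of the 31, 58.7%. The median log2 fold change was -0.31 for the 31 genes, -0.04 for all genes and -0.07 for the brighter genes. The exceptions were CDC25C, CENPH and CENPI. On E50 versus E40, 20 of the 31 were higher, with a median of 0.21, against 54.2% and 0.06 over all genes. Over the brighter genes these were 60.4% and 0.11, so the 64.5% of the 31 genes was close to the share for the brighter genes. With both steps, which share the E50 array, 20 of the 31 had their highest signal on E50, where 36.7% of all genes and 40% of the brighter ones did. In the same way 22 (71%) had their lowest on E60, where 34.5% and 35.2% did. A common order was E50 above E40 above E60, which 14 of the 31 (45.2%) followed, beside 15.2% of all genes and 16.5% of the brighter ones. Among the 14 were CCNB1, PLK1, CDC20, UBE2C and TOP2A. The 31 members not assigned a cell cycle role had medians of 0.14 and -0.03 in these steps, and 9 of them were highest on E50.

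**Figure D1:**
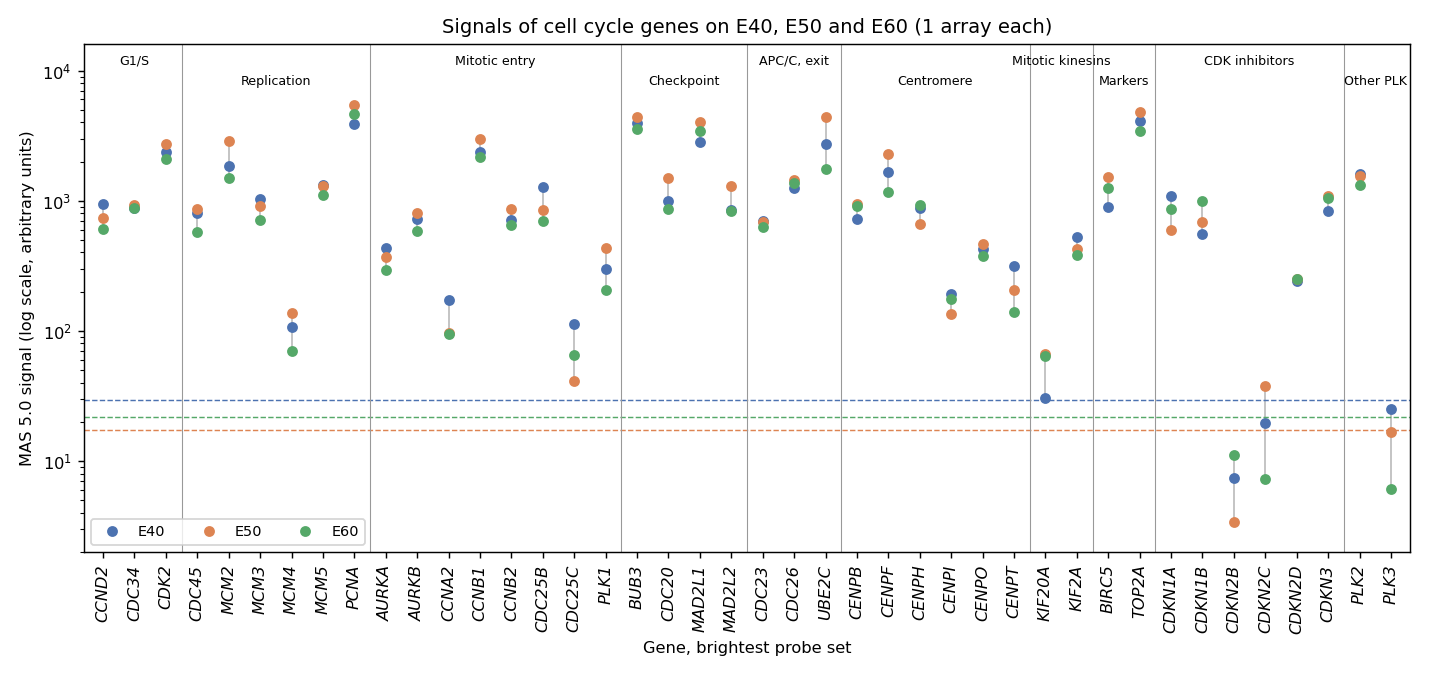
MAS 5.0 signal, on a log axis, of the 42 genes with a cell cycle role, grouped by role, with 1 point per array for E40, E50 and E60 and dashed lines at each array's floor of 29.3, 17.2 and 21.8. For most S phase and mitosis genes the E60 point lies below the E50 point, as it did for 28 of 31, and CDKN2B and PLK3 lie under the floor at every stage.

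The G1/S genes moved little between stages, at most 1.54-fold for CCND2. CCND2, a D cyclin that links growth signals to the cycle, had signals of 937.7, 741.6 and 609.2 on E40, E50 and E60. CDK2, the kinase of the G1/S step and S phase, gave 2363.0, 2706.6 and 2091.6. CDC34, which tags CDK inhibitors for destruction, gave 881.9, 920.8 and 884.8. Of the 3, CCND2 was the one whose signal was highest on E40.

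All 6 genes of replication licensing and the fork were lower on E60 than on E50, with a median log2 fold change of -0.47, but none by 2-fold. MCM2, a subunit of the replicative helicase, had signals of 1849.9, 2850.9 and 1507.1. MCM4, another subunit, was dim at 107.0, 137.7 and 69.9, and its log2 fold change of -0.98 on E60 versus E50 lay just inside the threshold. Both therefore stood highest on E50 and lowest on E60. CDC45, which activates the helicase, showed the same order with 805.5, 870.2 and 574.4. PCNA, the clamp that holds the polymerase on DNA, gave 3908.5, 5430.9 and 4607.3, so its lowest value was on E40. MCM3 gave 1023.0, 907.1 and 713.4. MCM5 gave 1330.5, 1303.0 and 1112.6, and these 2 subunits were lower at each later stage. Not every probe set agreed. A dimmer MCM2 probe set gave 91.6, 100.3 and 111.5, while a dimmer MCM5 probe set, with 310.6, 465.4 and 369.8, was highest on E50. The dimmer CDC45 probe set, with 228.0, 220.3 and 179.4, was highest on E40 and lowest on E60.

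Among genes of mitotic entry, PLK1 fell and the B cyclins moved less. PLK1, the polo-like kinase of spindle assembly, had signals of 300.0, 435.2 and 204.8, a log2 fold change of -1.09 on E60 versus E50. CCNB1 gave 2361.5, 3001.2 and 2149.8. CCNB2 gave 713.3, 859.9 and 649.1, so both B cyclins, the partners of CDK1, were highest on E50 by under 1.5-fold. AURKB, the aurora kinase of the chromosomal passenger complex, followed them with 719.8, 806.2 and 582.8. AURKA, which works at the spindle poles, was instead highest on E40 with 431.5, 367.3 and 291.4. Its dimmer probe set, at 201.5, 103.5 and 98.4, kept that order.

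The remaining 3 genes of mitotic entry were also highest on E40. CDC25C, a phosphatase that switches on CDK1, gave 112.7, 41.5 and 65.8 and fell by 1.44 on the log2 scale on E50 versus E40. CDC25B, a related phosphatase, gave 1264.4, 842.2 and 699.4. CCNA2, the cyclin of S phase and early mitosis, gave 174.1, 96.7 and 94.5. All 8 genes of mitotic entry were lower on E60 than on E40 as deposited, and their median log2 fold change of -0.56 lay between -0.66 and -0.25 under the alternatives.

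The 4 spindle checkpoint genes were all higher on E50 than on E40 and all lower on E60 than on E50, with median log2 fold changes of 0.55 and -0.47. CDC20, the activator of the anaphase-promoting complex that the checkpoint restrains, had signals of 996.3, 1497.4 and 865.8. MAD2L1, which binds CDC20, gave 2834.9, 4036.5 and 3408.8. BUB3, a checkpoint protein at kinetochores, gave 3987.0, 4357.9 and 3533.6. None of these steps reached 2-fold, and E50 was the highest stage for each. MAD2L2, which restrains the anaphase-promoting complex and also serves DNA damage tolerance, gave 844.8, 1292.0 and 832.3. Its second probe set moved the opposite way with 117.2, 56.6 and 115.0, so the direction of MAD2L2 rests on which probe set is read.

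UBE2C had the steepest drop of the cell cycle genes on E60 versus E50. This ubiquitin-conjugating enzyme, which works with the anaphase-promoting complex, had signals of 2745.9, 4381.4 and 1761.9, a log2 fold change of -1.31. Its dimmer probe set gave 54.3, 56.4 and 31.9, a smaller change of -0.82 in the same direction. The subunits CDC23, with 692.9, 687.3 and 625.3, and CDC26, with 1254.5, 1446.4 and 1370.8, spanned at most 1.15-fold. Of the other subunits, ANAPC4 had the widest span, with 929.9, 556.6 and 491.9, and none passed 2-fold.

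Centromere genes did not move together. CENPT, which links the centromere to the outer kinetochore, had signals of 314.6, 205.0 and 138.7 and fell by 1.18 on the log2 scale on E60 versus E40. Its 1 probe set ends in _a_at, so CENPT was not read in the alternative without shared-match suffixes. CENPF, a kinetochore protein that accumulates towards mitosis, gave 1658.7, 2273.5 and 1164.0, just inside the threshold at -0.97 on E60 versus E50. CENPH and CENPI, partners in the inner kinetochore, ran against the rest with their lowest signal on E50. CENPH gave 872.8, 662.7 and 921.8, and CENPI gave 192.7, 135.5 and 176.5. CENPB and CENPO stayed within 1.30-fold over the 3 stages.

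Of the mitotic motors, KIF20A, a kinesin needed for cytokinesis, rose on E50 and stayed up. Its signals of 30.3, 66.1 and 63.6 give a 2.18-fold difference on E50 versus E40, but the E40 signal lay close to the floor of 29.3. KIF2A, which shortens microtubules at spindle poles, gave 527.3, 428.8 and 381.9. The proliferation markers BIRC5 and TOP2A were both highest on E50. BIRC5 (survivin), a passenger complex protein, gave 889.7, 1530.7 and 1250.2. TOP2A, the topoisomerase that untangles sister chromatids, gave 4128.9, 4799.3 and 3413.4.

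**Figure D2:**
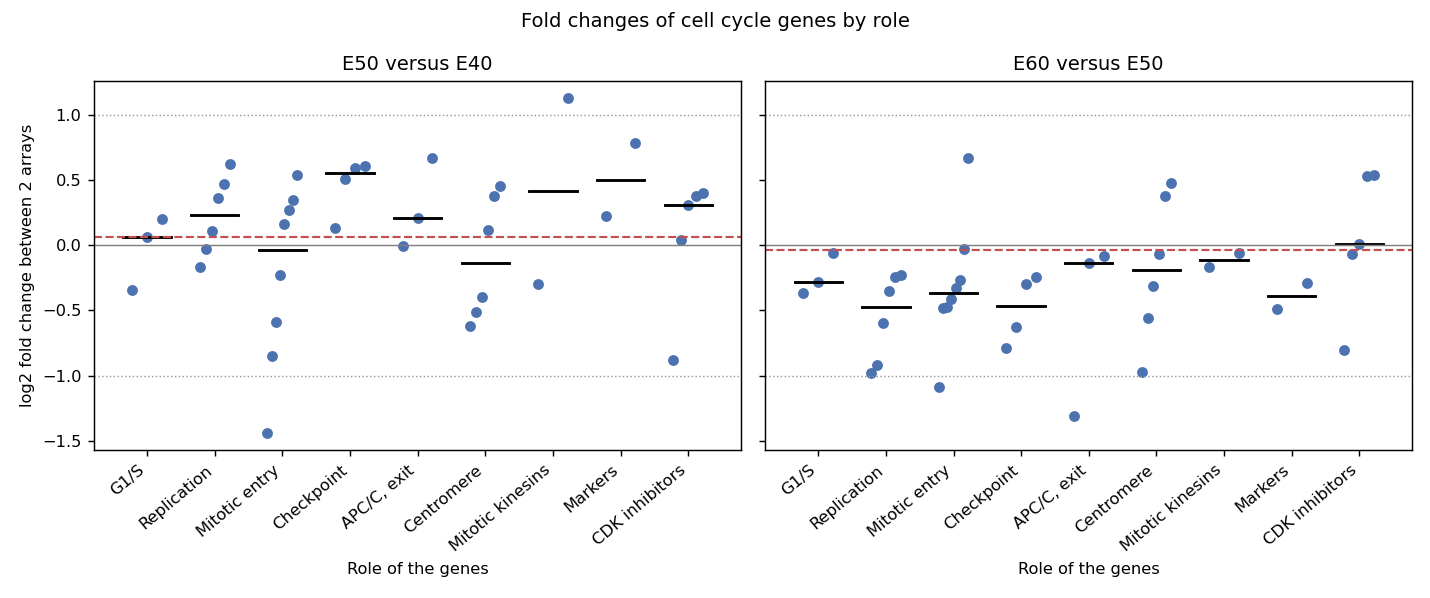
Log2 fold change of each measured gene by role for E50 over E40 (left) and E60 over E50 (right), with 1 point per gene, bars at the role's median, dotted lines at 2-fold and a dashed line at the median of all genes, 0.06 and -0.04. The checkpoint genes lie above 0 in the first step (median 0.55) and below 0 in the second (median -0.47), as all 6 replication genes do in the second, and the value of CDKN2C among the CDK inhibitors is a bound.

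The CDK inhibitors showed no common direction. CDKN1B (p27), which holds differentiating cells out of the cycle, had signals of 557.7, 690.8 and 997.8 and was the only inhibitor above the floor whose signal on E60 exceeded that on E40 by more than 1.5-fold. The log2 fold change was 0.84, short of the threshold. A second probe set, at 51.6, 49.1 and 90.1, was also highest on E60, but the dimmest one, at 50.8, 20.1 and 31.4, was highest on E40. CDKN1A (p21), an inhibitor induced by p53, gave 1090.1, 593.1 and 861.7, its lowest being on E50. CDKN2D was level at 241.8, 248.4 and 249.9. CDKN3, a phosphatase that acts on CDKs, gave 829.0, 1094.2 and 1041.3. CDKN2C, an inhibitor of CDK4 and CDK6, was above the floor on E50 alone, at 38.0, and at least 1.74-fold lower on E60. PLK2, a kinase of centriole duplication, gave 1611.7, 1543.2 and 1330.6.

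Of the 9 genes over 2-fold, 4 were not assigned a cell cycle role. KIF5B, the ubiquitous transport kinesin, had signals of 426.5, 114.2 and 118.9, the largest measured fold of any member, at -1.90 on the log2 scale on E50 versus E40. KIF5C, its relative best known from neurons, went the other way with 175.5, 387.6 and 390.3, a 2.21-fold rise. For both, E50 and E60 were nearly equal and E40 differed. CDC42SE2, a small effector of CDC42, rose to 2.20-fold on E60 versus E40, with 1074.9, 1698.7 and 2363.6. CDC42EP2, another effector, gave 116.1, 265.1 and 117.8, but its second probe set was level at 71.2, 66.8 and 71.1. Among the 11 other CDKs and CDK-binding proteins none differed by over 2-fold, and their signals spanned at most 1.69-fold between stages, for CDK7.

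Other cell cycle genes, from 4 pathway lists, were read beside the members. Of 138 listed genes 72 were named on the array, and 10 of 71 measured (14.1%) differed by over 2-fold in at least 1 pair. The share was 17.6% over all genes and 11.2% over the brighter genes. On E60 versus E50, 54 of the 71 (76.1%) were lower, with a median of -0.30, where 54.6% of all genes were, with a median of -0.04. DNA replication genes were lower in 22 of 26 (84.6%), with a median of -0.36. FEN1, which trims Okazaki fragments, was the 1 that fell by over 2-fold, with signals of 517.6, 833.1 and 403.1, a log2 fold change of -1.05 that became -0.61 with the mean over its probe sets. ORC4, a subunit of the origin recognition complex, gave 2037.1, 1008.0 and 1726.1, at -1.01 on the log2 scale for E50 over E40, which lay between -1.08 and -0.63 under the alternatives.

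Genes listed together as E2F, RB and G1 regulators showed their over 2-fold differences on E60 versus E40. In that pair 3 of 7 measured fell by over 2-fold, beside 7.3% of all genes, and 0 rose, beside 4.49%. MYBL2, a transcription factor of S phase and G2 genes, had signals of 2060.2, 1372.9 and 867.0. MYC, a transcription factor that drives growth, gave 957.9, 597.5 and 426.2. E2F3, an activator of S phase genes, gave 135.2, 102.4 and 58.8, so each of the 3 was lower at each later stage. The list's median log2 fold change was -0.57 from E50 to E60 and -0.56 over the whole interval from E40. With the mean over its probe sets in place of the brightest, MYBL2 differed by -0.42 on the log2 scale on E60 versus E40.

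Spindle, kinetochore and condensation genes were lower on E60 than on E50 in 17 of 23 (73.9%, beside 54.6% of all genes), with a median of -0.29. RACGAP1, which positions the cleavage furrow, fell on E60 with signals of 3057.8, 3652.3 and 1801.4. SPC25, of the NDC80 kinetochore complex, gave 241.8, 46.5 and 59.3. KIFC1, a minus-end spindle motor, gave 254.6, 57.4 and 80.5. Both were high on E40 alone, with log2 fold changes of -2.38 and -2.15 on E50 versus E40. With a floor at the 50th percentile these were -0.95 and -1.03. HMMR, a spindle protein and hyaluronan receptor, fell on E60 versus E40 with 124.9, 86.1 and 61.7. For checkpoint and growth arrest genes the E60 versus E50 median was -0.04, equal to that of all genes. In that list GADD45B, a stress-induced growth arrest gene, rose on E60 with 219.3, 221.2 and 570.5, a 2.58-fold difference from E50, and no other of the 15 passed 2-fold.

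**Figure D3:**
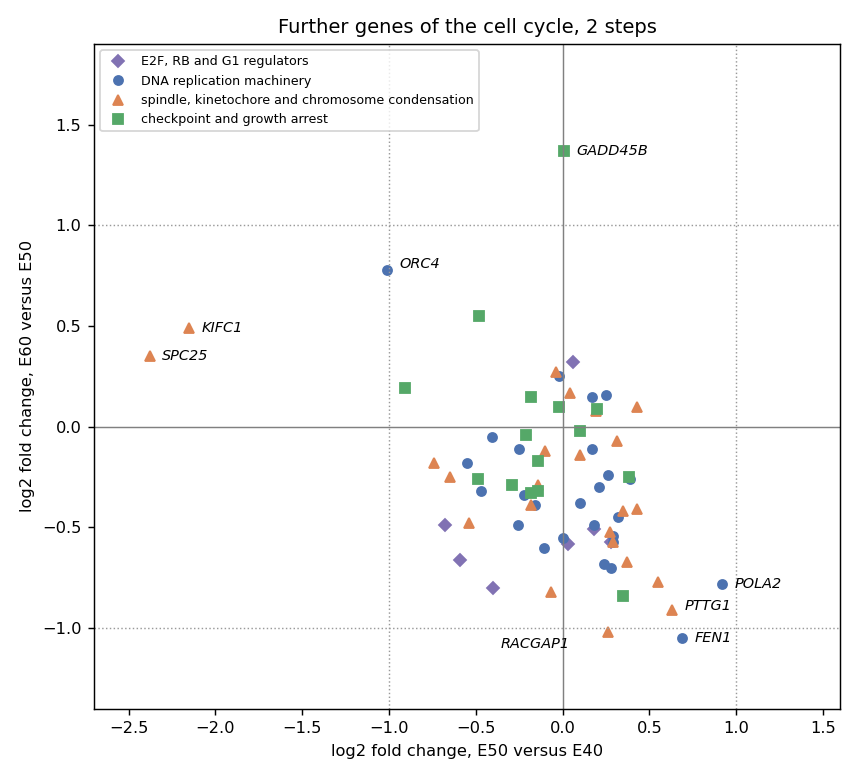
Log2 fold change on E60 versus E50 against that on E50 versus E40 for the measured genes of 4 pathway lists, 1 point per gene, with dotted lines at 2-fold, where both axes use the E50 array. Most points, 54 of 71, lie below 0 on the vertical axis, with FEN1 and RACGAP1 past 2-fold, while GADD45B lies apart at 1.37 and SPC25 and KIFC1 lie far to the left.

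The size of these differences can be set against the agreement of probe sets for the same gene. For 18 members with several measured probe sets, the log2 fold changes of the others differed from that of the brightest with an SD of 0.577 for E50 over E40, 0.593 for E60 over E50 and 0.486 for E60 over E40. In each pair most members had a log2 fold change smaller than this SD. Of the unused probe sets of the S phase and mitosis genes, 7 were measured on E60 versus E50, 5 lower and 2 higher, with a median of -0.30. For E50 over E40, 8 were measured, 4 higher and 4 lower, with a median of 0.00, so the higher signals on E50 than on E40 were not seen in them. Of the 9 genes over 2-fold, all but UBE2C and CDC42EP2 rest on 1 probe set.

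The lower signals on E60 than on E50 were seen under every scaling of the arrays, whereas the direction from E40 to E60 depended on it. The S phase and mitosis median on E60 versus E50 lay between -0.49 and -0.29 under all alternatives, and 25 to 28 of these genes were lower. On E60 versus E40 it was -0.26, with 24 of 31 lower, but 0.05 with 12 lower when arrays were scaled to equal medians, a scaling that moved the median of all genes from 0.00 to 0.31. The same scaling moved the median of all genes from 0.06 to 0.44 for E50 over E40 and from -0.04 to -0.12 for E60 over E50. Scaling to the median signal of 13 housekeeping genes, which on every array was the signal of ACTB, moved the latter 2 to 0.30 and -0.22. That scaling did not level the housekeeping genes, whose median log2 fold changes for these steps were 0.01 and -0.06 as deposited and 0.27 and -0.24 after it. Relative to all genes, the S phase and mitosis median was lower on E60 versus E40 under each of these scalings.

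**Figure D4:**
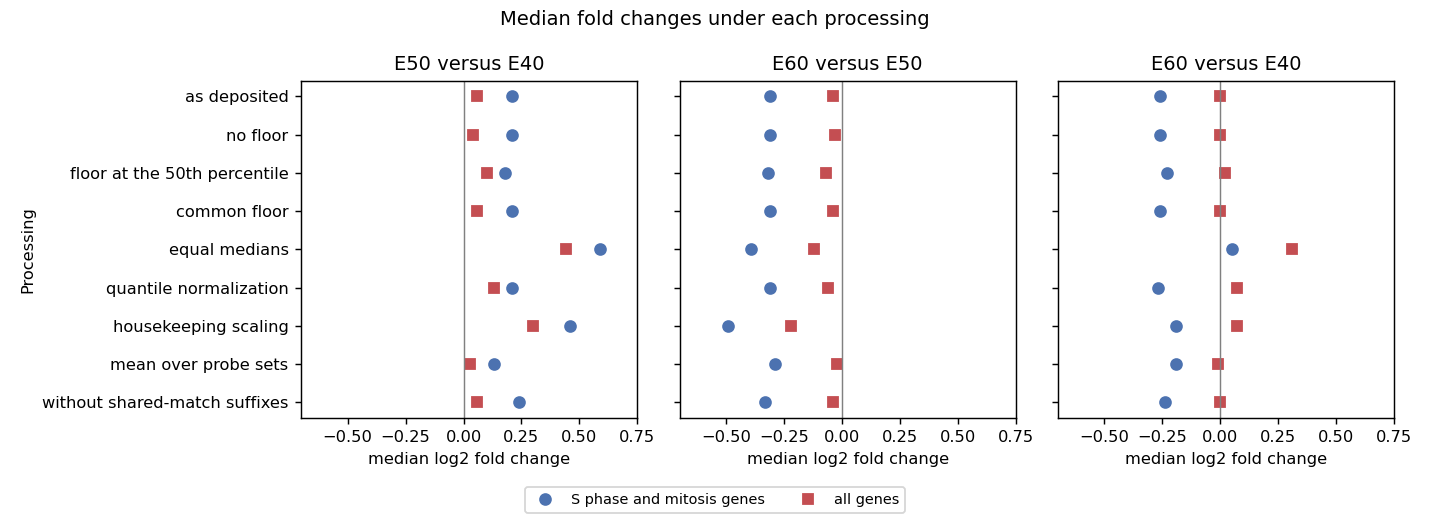
Median log2 fold change of the 31 S phase and mitosis genes (circles) and of all genes (squares) in the 3 pairs of stages under each processing. On E60 versus E50 the circles lie between -0.49 and -0.29 and left of the squares in every row, and on E60 versus E40 the circle under equal medians is the one on the positive side, at 0.05.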

How the data were processed

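RNA of pooled tooth germs was measured on Affymetrix Porcine arrays, 1 for each stage. The authors deposited log2 values of scaled MAS 5.0 signals, which were converted back to signals here. Per the labels MAS5 was used, and no genome build is involved. Detection calls and the authors' lists of differing genes were not used. The members and the gene lists were chosen with earlier results of these data known.

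The table holds 24123 probe sets, and 124 control probe sets were dropped. Of the other 23999, 10069 carry 1 symbol, 198 several and 13732 none in the platform annotation, and only those with 1 symbol were used, which left out 4 probe sets with a matching symbol. All 73 members were found by gene ID in a RefSeq gene table, which changed 0 symbols. A gene was read from its brightest probe set (by mean log2 signal over the arrays).

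Signals under the 25th percentile of their array were raised to it. A fold with 1 raised signal is a bound, and with both raised none was computed. A gene was called past 2-fold. Named genes were all members above the floor on at least 1 array in the lists for G1/S, replication, mitotic entry, spindle checkpoint, proliferation markers and CDK inhibitors, and elsewhere those past 2-fold or, with none, the 2 brightest. KIF2A, CDC23, CDC26, CENPF, CENPH, CENPI, CENPB and CENPO were added afterwards. So were the members not assigned a cell cycle role and MKI67, CDK1, CDK4, CCND1 and CCNE1. Precision is limited by the number of arrays, 3. The alternatives are a floor at the 50th percentile, none or a common one, equal medians, quantile normalization, housekeeping scaling, a 3-fold threshold, the mean over probe sets and probe sets without shared-match suffixes. The last of these left out every probe set ending in _s_at, _x_at or _a_at, whether or not it matches other genes. The brighter genes were the 4919 of 6765 with a mean log2 signal above the median of all probe sets, including those without a symbol. Reading these alone was an alternative chosen after seeing the data. Promoter motifs were not searched. Calculations used Python 3.11.15, numpy 2.4.6, pandas 2.3.3 and matplotlib 3.10.9, and the scripts were tested on simulated data.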

Additional observations from a re-analysis of the deposited data

How the results depend on the processing

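No paired analysis was possible because there is 1 array per stage, and for the same reason no array could be left out. Under at least 1 alternative, 30 of 69 list medians changed sign. None of the 26 gene folds past 2-fold did, but equal medians and housekeeping scaling could not have reversed folds of that size. Some of the 26 fell inside 2-fold under an alternative, such as FEN1 at -0.61 on the log2 scale on E60 versus E50 and SPC25 at -0.95 on E50 versus E40. Counting each gene fold under each alternative, 3318 values stayed within 1.5-fold of the value as reported and 29 did not, and of the list medians 548 values stayed and 4 did not. Equal medians and housekeeping scaling shift all genes alike by less than 1.5-fold, so under these 2 such a count says little. Members higher on E50 versus E40 numbered 3, but 1 with a floor at the 50th percentile, 10 under equal medians, 5 under quantile normalization, 5 under housekeeping scaling (to the signal of ACTB) and 0 at 3-fold. Members lower on E50 versus E40 numbered 2, but 1 with the floor at the 50th percentile, 1 under quantile normalization, 1 at 3-fold, 1 among the brighter genes and 4 with the mean over probe sets. On E60 versus E50, 0 members were higher, but 1 without a floor and 1 with the mean over probe sets, and 3 were lower, but 5 without a floor, 5 under equal medians, 5 under quantile normalization, 6 under housekeeping scaling and 0 at 3-fold. MCM4 was among those added under all 3 scalings, and MCM2 and CENPF under some. On E60 versus E40, 3 members were higher, but 0 at 3-fold, and 2 were lower, but 4 without a floor and 1 each under equal medians, under quantile normalization, at 3-fold and without shared-match suffixes. The one that remained in those 4 settings was KIF5B. S phase and mitosis genes lower on E50 versus E40 numbered 11, but 6 under equal medians and 7 under housekeeping scaling, and on E60 versus E40 they numbered 24, but 12 under equal medians. Among all genes past 2-fold, the share that was higher was 25.5%, 71.4% and 38.1% on E50 versus E40, E60 versus E50 and E60 versus E40, against 62.5%, 63.2% and 66.2% under equal medians, 52.4%, 57.6% and 55.8% under quantile normalization and 47.9%, 190 higher against 190 lower genes, and 43.5% under housekeeping scaling. The causes were not tested. Dim genes are limited by the floor, and KIF20A and CDC25C were not called with the floor at the 50th percentile.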
